A study of Hordeum vulgare with 30 samples.

Results

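The genes described here were not detected in roots of at least 1 of 5 barley varieties and were expressed in roots of at least 1 other. They were selected on their raw counts by 1 rule, namely 3 counts or fewer in all 6 libraries of at least 1 variety together with 50 counts or more in all 6 libraries of at least 1 other variety. The rule found 119 of the 35826 genes in the table, or 0.332%. Of the 15199 genes that reached 50 counts in all 6 libraries of some variety they were 0.783%. In the following, a variety with at most 3 counts in all 6 libraries is called undetected for a gene, and a variety with at least 50 counts in all 6 is called expressing. A variety that met neither limit is called in between.

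The roots came from plants that were 10 days old at the start of the treatment, and 3 plants were pooled for each sample. Waterlogged plants stood in water above the soil surface for 24 h, and control plants were watered normally. Golden Promise is a spring two-row barley, Infinity and Regina are winter two-row barleys, and Passport and Pilastro are winter six-row barleys. Each variety gave 3 waterlogged and 3 control libraries, which makes 10 groups and 30 libraries of 9601984 to 12349136 counts each (median 11982157.5). Differences between varieties follow from the rule and are a description without a test, except for those chosen in the control libraries and tested in the waterlogged libraries.

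Barley varieties are known to differ in which genes their genomes carry, and such presence and absence variation is common among families that recognise pathogens. Reads here were aligned to the genome of Morex, so every gene in the table is a gene of that variety. A gene that is missing from a genome, a gene that is silent in roots and a gene whose sequence has diverged too far for its reads to align all give few or no counts, and these cannot be told apart from counts alone. The table also holds no gene that Morex lacks. Nothing stated whether reads that fit several genes were counted, so values of genes with a close copy are uncertain.

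The labels were checked on genes known to respond to waterlogging. HvADH1, an alcohol dehydrogenase of fermentation, was at 199 to 1410 CPM (counts scaled to the library total) in waterlogged libraries and at 19.1 to 120 CPM in control libraries. For HvADH1, for HvPDC1 (pyruvate decarboxylase) and for HvHB (a haemoglobin), the waterlogged libraries lay above all controls of their own variety in 5 of 5 varieties. The leaf genes for the small chain of Rubisco and for Rubisco activase stayed under 10 CPM in all 30 libraries, with a highest value of 9.37 CPM.

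One library stood apart from the others of its label in genes of this kind. For each library, genes were counted that had 3 counts or fewer in the other 5 libraries of the same variety and at least 50 in all 6 libraries of another variety. The library labelled Passport waterlogged 2 had more than 3 counts at 19 of 50 such genes (38.0%), whereas the other 29 libraries had more than 3 counts at 0 to 5 of theirs. Of the 23 genes that were expressing in Infinity and low in the other Passport libraries, 14 had 13 to 515 counts in Passport waterlogged 2 and the remaining 9 had 0. Over these 14 genes the median level in Passport waterlogged 2 was 26.0% of the mean CPM in Infinity. The same was seen for 12 of 34 genes of Golden Promise, 8 of 16 of Regina and 5 of 13 of Pilastro. Which plants or RNA this library held was not tested. Without it the rule found 130 genes, which had to include all 119. Of the 130, 50 were undetected in Passport, against 31 of the 119 with it. Of the 19 genes, 8 were among the 119 and 11 were not.

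**Figure D1:**
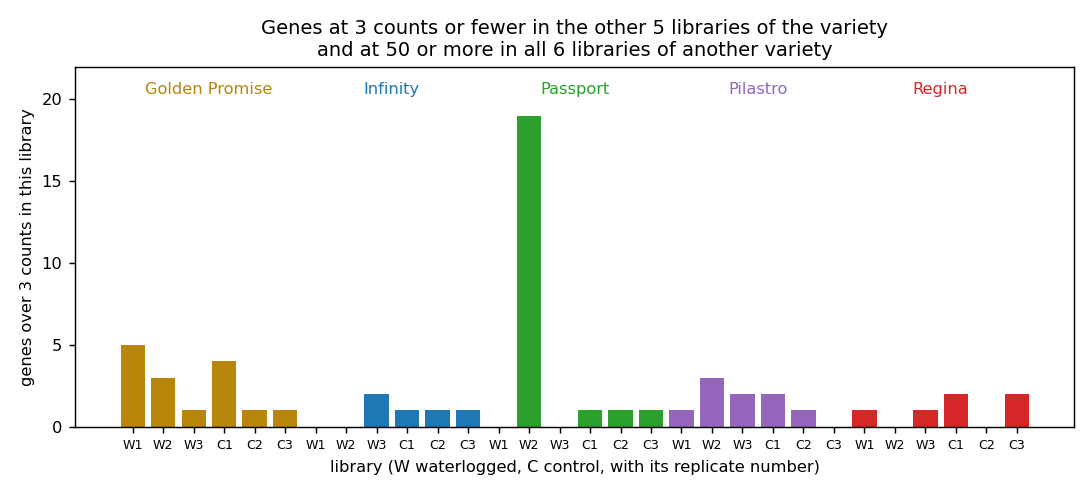
For each library, the bar gives the number of genes above 3 counts there, among genes at 3 counts or fewer in the other 5 libraries of the variety and at 50 or more in all 6 libraries of another variety. Passport waterlogged 2 reached 19 genes and each of the other 29 libraries 0 to 5.

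Within the 3 counts that the rule allowed, most counts in undetected varieties were 0. The undetected varieties of the 119 genes gave 1356 single counts, of which 1285 (94.8%) were 0. In 95 of the genes every library of every undetected variety held 0 counts, and the other 24 had 1 to 3 counts somewhere. The smallest count in an expressing variety was 50 to 2374 with a median of 87 and it was 100 or more in 48 genes. Against a floor of 3 counts per library, genes at 0 in their undetected varieties were at least 18.0-fold to at least 869-fold higher in their lowest expressing variety (median 47.5-fold). This floor covers counting error only, and the limits of 3 and 50 counts make such folds large by the rule. At the limits of the rule, 9 genes had a best variety with a smallest count of 50 to 54 and 10 genes just missed with 45 to 49, whereas 31 genes missed because their lowest variety reached 4 to 6 counts.

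**Figure D2:**
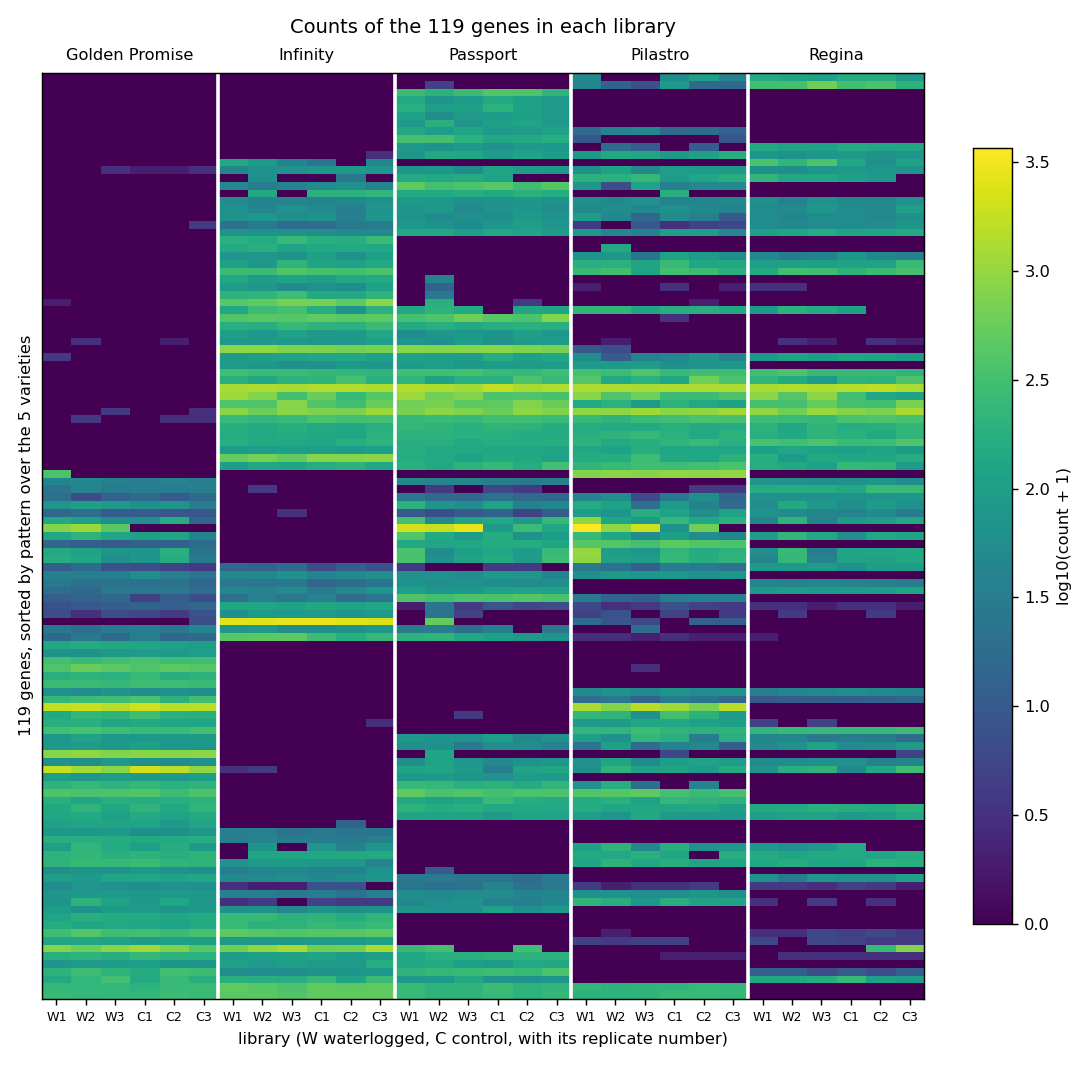
Each row is 1 of the 119 genes, sorted by its pattern over the varieties, and each column is 1 library, with waterlogged libraries (W) left of control libraries (C). Colour gives log10(count + 1), so dark cells are at or near 0, and the lone bright cells in Passport W2 belong to the library that stood apart.

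Regina was undetected for the largest number of these genes and Passport for the smallest. Regina was undetected for 56 of the genes, Golden Promise for 51, Infinity for 46, Pilastro for 42 and Passport for 31. Passport expressed 58 of them, Golden Promise and Infinity 46 each, Pilastro 41 and Regina 36. With Passport waterlogged 2 left out, Passport was undetected for 50 of the 130 genes and Pilastro, for 42, was the lowest. Just 1 variety was undetected in 58 genes, 2 in 27, 3 in 22 and 4 in 12 genes. The commonest set of undetected varieties was Golden Promise alone (22 genes), followed by Infinity alone (14) and Regina alone (10).

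In 48 of the 119 genes (40.3%) every variety was either undetected or expressing. These fell into 17 of the 30 patterns that 5 varieties allow. The largest pattern, with 13 genes, was undetected in Golden Promise and expressing in the 4 winter varieties, and the next, with 6 genes, was expressing in Golden Promise and undetected in the 4 winter varieties. Passport alone expressed 5 further genes. At these limits no gene split the varieties by row number. Expressing in all 3 two-row varieties with both six-row varieties undetected were 0 genes, and 0 showed the reverse. Below the limit for expressing, the gene at place 2513 of 4309 on 6H did part them. It was at 0 in all libraries of the 3 two-row varieties, at 87 to 135 counts in Passport and at 12 to 45 in Pilastro.

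Counted by pairs of varieties, Golden Promise and Passport differed most and Pilastro and Regina least. A gene was expressing in 1 and undetected in the other in 58 cases for Golden Promise and Passport, 53 for Golden Promise and Infinity, 48 for Golden Promise and Regina and 41 for Golden Promise and Pilastro. Among the winter varieties the number was 17 for Pilastro and Regina and 26 to 36 for the other 5 pairs. The split was uneven between Passport and Regina, with 28 genes expressing in Passport and undetected in Regina, against 8 in the other direction. Without the library Passport waterlogged 2, which changed the pairs with Passport only, the number was 70 for Golden Promise and Passport, 44 for Infinity and Passport, 31 for Passport and Pilastro and 44 for Passport and Regina. In the last of these pairs, 28 genes were then expressing in Passport and undetected in Regina, against 16 in the other direction.

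Descriptions were at hand for 22 of the 119 genes, and the other 97 are named by chromosome and by their place in the order of gene IDs. The described genes fell into immune receptors, enzymes of central metabolism and RNA, and proteins of regulation and defence.

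The gene for Glutamate--tRNA ligase (HORVU.MOREX.r3.1HG0044370), which charges tRNA with glutamate, had 308, 345 and 299 counts in waterlogged and 258, 269 and 326 in control roots of Golden Promise. In Pilastro it had 219, 223 and 275 counts in waterlogged and 215, 201 and 206 in control roots, and in Regina 223, 250 and 255 in waterlogged and 243, 247 and 277 in control roots. All 12 libraries of Infinity and Passport held 0 counts of it. The gap between 0 and 201 counts is a description, as the rule chose the gene on these counts.

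The gene for the C-terminal section of the large chain of carbamoyl-phosphate synthase (HORVU.MOREX.r3.1HG0054650), an enzyme of arginine and pyrimidine synthesis, was undetected in Golden Promise alone, at 0 in all 6 libraries. Its counts in the 4 winter varieties were 264 to 397 in waterlogged and 221 to 298 in control libraries. A gene described as subunit alpha of the carboxyl transferase of acetyl-coenzyme A carboxylase (HORVU.MOREX.r3.3HG0221310), which serves fatty acid synthesis, had the same pattern but was uneven among the winter varieties. Its mean was 49.2 CPM in the highest expressing variety, Passport, and 12.2 CPM in the lowest, Pilastro. An alpha/beta-hydrolase (HORVU.MOREX.r3.5HG0449710) and a gene with the description myosin-4 protein (DUF641) (HORVU.MOREX.r3.4HG0355460) were likewise undetected in Golden Promise only. The gene with the DUF641 description kept up to 3 counts there.

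The gene for RNA 3'-terminal phosphate cyclase (HORVU.MOREX.r3.1HG0048590), an enzyme that closes the end of RNA into a cyclic phosphate, was the described gene with the largest smallest count. In Infinity it had 871, 920 and 744 counts in waterlogged and 740, 644 and 696 in control roots, and in Passport 867, 815 and 828 in waterlogged and 843, 749 and 693 in control roots. Golden Promise and Regina were at 0 in all 12 libraries, which puts Infinity and Passport at least 249.5-fold higher. Pilastro was in between, with 9, 6 and 0 counts in waterlogged and 0 in all control roots. That difference, at least 1.69-fold against the floor of 3 counts, passed the test described below for waterlogging (edgeR adjusted p = 0.0334), with adjusted p-values of 0.0675 to 0.0872 without waterlogged replicate 1 or 2 or any 1 of the 3 control replicates.

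Some genes met the limit for expressing in 1 variety only. A 2-oxoglutarate and Fe(II)-dependent oxygenase on 4H (HORVU.MOREX.r3.4HG0417190), of a large family that acts in hormone and secondary metabolism, had 132, 154 and 140 counts in waterlogged and 129, 109 and 96 in control roots of Golden Promise, and 0 counts in all 24 libraries of the winter varieties. A sulfotransferase on 7H (HORVU.MOREX.r3.7HG0653120), which moves sulfate groups onto small molecules, had 441, 497 and 686 counts in waterlogged and 680, 501 and 887 in control roots of Infinity. Golden Promise, Pilastro and Regina had at most 1 count of it. In Passport it had 0, 175 and 0 counts in waterlogged and 0, 3 and 0 in control roots, so that Passport waterlogged 2 alone kept the variety from being undetected. A Myb/SANT-like DNA-binding protein (HORVU.MOREX.r3.1HG0014570) repeated this, with 92 to 152 counts in Infinity, 39 in Passport waterlogged 2 and 0 in the other 23 libraries.

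The deepest gene of all, at place 804 of 5507 on 7H, had 2477, 2471 and 2734 counts in waterlogged and 2874, 2621 and 2374 in control roots of Infinity. It was at 0 in Regina and at 515 in Passport waterlogged 2, and it was at most 17 in the remaining libraries of Golden Promise, Passport and Pilastro. Its neighbour at place 803, described as related to myosin heavy chain (HORVU.MOREX.r3.7HG0650690), was also highest in Infinity, at 61 to 86 counts, with 22 in Passport waterlogged 2 and at most 7 elsewhere.

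Protein FLX-like 3 (HORVU.MOREX.r3.1HG0060150), named after an Arabidopsis protein that promotes expression of a flowering repressor, split the winter varieties. It was expressing in Golden Promise, Passport and Pilastro and at 0 in all 12 libraries of Infinity and Regina. A NAC domain transcription factor (HORVU.MOREX.r3.1HG0022790) was at 0 in all 12 libraries of Pilastro and Regina and had 73 to 165 counts elsewhere. A further oxygenase of the same family, on 7H (HORVU.MOREX.r3.7HG0663570), was at 0 in Golden Promise and Passport and had 79 to 263 counts in the other varieties.

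Disease resistance genes made up 5 of the 22 described genes. Their products are intracellular receptors with a nucleotide-binding site and leucine-rich repeats (NBS-LRR) that detect pathogen proteins. A share can be given only for the first part of 1H, where all 1346 genes at 50 or more counts in a variety carry a description. There, 4 of 11 genes that met the rule (36.4%) were disease resistance genes, against 27 of all 1346 (2.01%). Protease inhibitors gave 1 of 11 (9.09%), against 12 of 1346 (0.892%). None of the 11 was a protein kinase, a class that made up 7.58% of the 1346, and none carried a description of an F-box protein, pentatricopeptide repeat protein, RING-type ubiquitin ligase, peroxidase, glutathione S-transferase, cytochrome P450, glycosyltransferase, histone, transporter or putative transmembrane protein. With 11 genes these shares are a description, and 3 of the 4 resistance genes lay within 5 places of each other.

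These 3 resistance genes, at places 276, 279 and 280 of 4437 on 1H, were all undetected in Infinity. Each met the limit for expressing in 1 variety, a different one for each gene. The remaining varieties were in between, with at least 4 counts of each gene in every library. At place 279 the mean was higher in Pilastro, which was in between (10.7 CPM), than in Golden Promise, which was expressing (6.85 CPM). The gene at place 276 (HORVU.MOREX.r3.1HG0004300, TIR-NBS-LRR class) was expressing in Regina, with 63, 67 and 63 counts in waterlogged and 67, 70 and 78 in control roots. The gene at place 279 (HORVU.MOREX.r3.1HG0004340, NBS-LRR class) was expressing in Golden Promise, with 76, 113 and 78 counts in waterlogged and 79, 78 and 87 in control roots. The gene at place 280 (HORVU.MOREX.r3.1HG0004350), named after the Arabidopsis receptor RPP13, was expressing in Pilastro, with 100, 74 and 167 counts in waterlogged and 116, 59 and 118 in control roots. The samples of Pilastro were not alike. Replicate 2 had 56 and 58 counts at place 276 in its waterlogged and control library, above the other 4 Pilastro libraries at 6 to 37, and it had 63 and 30 counts at place 279, below the others at 102 to 229.

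The other 2 resistance genes were low in Pilastro and Regina. The gene named after the Arabidopsis receptor RPM1 (HORVU.MOREX.r3.1HG0003200) had 91 to 205 counts in waterlogged and 94 to 239 in control libraries of Golden Promise, Infinity and Passport, and at most 2 counts in Pilastro and Regina. A putative NBS-LRR gene on 2H (HORVU.MOREX.r3.2HG0097510) was expressing in Infinity and Passport, had 15 to 30 counts in Golden Promise and at most 2 counts in Pilastro and Regina.

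The genes were most frequent near the ends of the chromosomes in gene ID order. With the IDs of each chromosome cut into 10 equal parts, the first and the last part held 59 genes, or 2.25% of the 2619 genes there that reached 50 counts in a variety (95% Wilson interval 1.75 to 2.89%). The middle 4 parts held 27, or 0.41% of 6591 (0.282 to 0.595%). Over the 10 parts the numbers were 27, 12, 8, 6, 2, 14, 5, 2, 11 and 32, so the sixth part stood above its neighbours. The intervals treat genes as independent, which neighbouring genes are not.

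**Figure D3:**
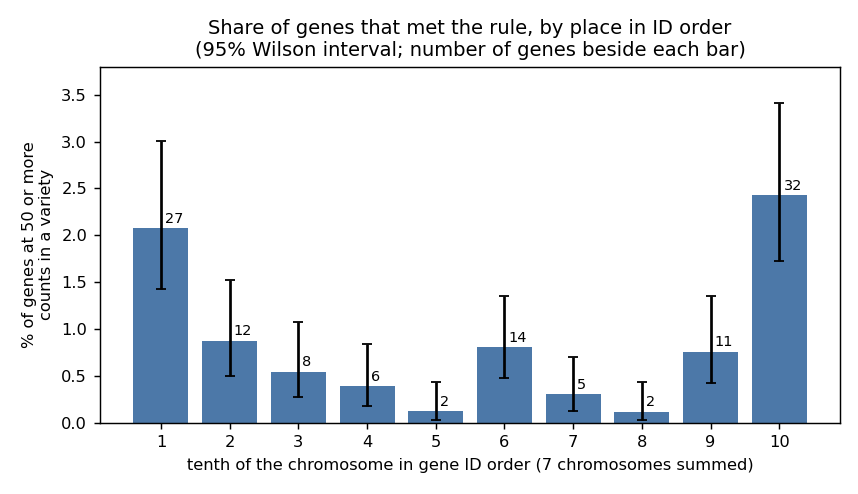
Bars give the genes that met the rule as a percentage of all genes at 50 or more counts in some variety, by part of the chromosome in gene ID order (10 equal parts), with 95% Wilson intervals and the number of genes beside each bar. The last part (32 genes) and the first (27 genes) were the highest.

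By chromosome, 7H held 28 of the genes, or 1.27% of its genes at 50 or more counts in a variety (0.882 to 1.83%), and 4H held 8, or 0.423% (0.215 to 0.833%). The other chromosomes held 14 on 1H, 21 on 2H, 18 on 3H, 17 on 5H and 13 on 6H, with shares of 0.694 to 0.832%. On 7H, 14 of the 28 were undetected in Regina and 12 in Golden Promise.

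Genes next to each other in the order of gene IDs often shared the same undetected varieties. This order runs over the counted genes, whose ID numbers are not evenly spaced, so other genes may lie between neighbours. Of the 119 genes, 22 (18.5%) stood next to another in this order, in 12 adjacent pairs. In 10 of these pairs (83.3%) the undetected varieties were the same, against 504 of all 7021 pairs of the 119 genes (7.18%). Within 5 places the share was 11 of 20 pairs (55.0%). Of 214 flanking genes that did not meet the rule, 80 reached 50 counts in all 6 libraries of a variety. By the rule, none of these 80 could be undetected in any variety, so they cannot show how far the lack of counts reached. Of the 80, 64 (80.0%) were at 50 or more in every variety where the gene beside them was undetected. Among the 15199 genes that reached 50 counts in a variety, 12777 were at 50 or more in all 30 libraries.

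At places 208 to 210 of 5507 on 7H, 3 neighbouring genes were at 0 in all 18 libraries of Passport, Pilastro and Regina. All were expressing in Golden Promise, at 115 to 160, 59 to 82 and 147 to 172 counts. The first also reached 194 to 256 counts in Infinity, where the others stayed at 22 to 38. On 2H, the genes at places 122 and 123 of 5808 were expressing in Golden Promise and Infinity and undetected in Passport and Pilastro. The first was at 0 in Regina and the other at 2 to 5 counts there.

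Several adjacent pairs had almost equal counts library by library. At places 2848 and 2849 of 5559 on 5H, both genes were undetected in Regina alone, and the ratio of the 2 counts was 0.865 to 1.17 over the 24 expressing libraries. At places 554 and 555 of 4309 on 6H, expressing in Passport alone, the ratio was 0.924 to 1.32 over 6 libraries. At places 5450 and 5451 of 5507 on 7H, undetected in Infinity, the first gene had 23 to 1017 counts and the next 27 to 953 in the other varieties, and the ratio of the 2 was 0.797 to 1.30 over the 21 libraries where both reached 50. Whether reads were shared between such neighbours was not tested.

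Few of these genes, like few of all genes, were called for waterlogging against control in the varieties that expressed them. This contrast was not used by the rule and was tested with edgeR's quasi-likelihood test over all 20576 genes that passed the filter on low counts, with p-values adjusted by the Benjamini-Hochberg method and an adjusted p below 0.05 required. Among genes expressing in Golden Promise 0 of 46 passed, against a background of 0.442% of all genes tested and 0.364% of genes at 50 or more counts in the variety. None of the 46 had an unadjusted p below 0.05, against 6.49% of all genes, and DESeq2 also called 0, against 1.05% of the genes it tested. In Infinity 1 of 46 passed, against 3.92% of all genes and 3.92% of those at 50 or more counts, and in Passport 1 of 58, against 1.08 and 1.10%. In Pilastro 0 of 41 passed, against 3.82 and 4.27%, with 3 at an unadjusted p below 0.05 and 2 called by DESeq2, against 20.1 and 7.84% of all genes tested. In Regina 1 of 36 passed, against 4.04 and 3.89%. Together 3 of 227 gene and variety combinations (1.32%) were called, all of them higher in waterlogged roots. No background was taken over the 5 varieties together, so this share stands beside the shares per variety only. The median log2 fold change of the genes was -0.08 in Infinity and 0.02 or nearer to 0 in the other varieties.

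**Figure D4:**
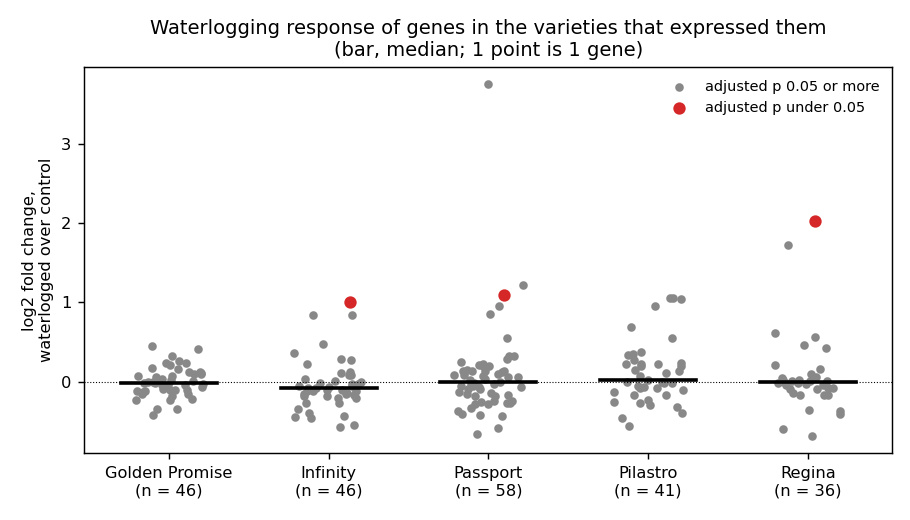
Each point is the log2 fold change, waterlogged over control, of 1 gene in a variety that expressed it, with the median as a bar and the 3 called combinations in red. Medians lie at or near 0 in all 5 varieties, and the 3 called points lie at 1.01 in Infinity, 1.09 in Passport and 2.02 in Regina.

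The NBS-LRR gene on 2H (HORVU.MOREX.r3.2HG0097510) rose in both varieties that expressed it. In Infinity it had 443, 472 and 463 counts in waterlogged and 274, 174 and 237 in control roots (log2 fold change 1.01, SE 0.247, edgeR adjusted p = 0.0240). In Passport it had 196, 217 and 138 counts in waterlogged and 103, 85 and 70 in control roots (log2 fold change 1.09, SE 0.254, edgeR adjusted p = 0.0380). Waterlogged and control libraries did not overlap in either variety. In whole roots, a change in the number of cells that express a gene and a change in RNA per cell cannot be told apart. In Golden Promise, where the gene was in between, it had 15, 26 and 16 counts in waterlogged and 30, 15 and 16 in control roots, which overlapped. The adjusted p in Infinity was 0.150 without control replicate 2, 0.0762 without control replicate 3, 0.0703 without waterlogged replicate 2 and 0.0501 without waterlogged replicate 3. In Passport it was 0.082, 0.0915 and 0.167 without control replicates 1, 2 and 3, 0.0993 without waterlogged replicate 1 and 0.205 without waterlogged replicate 2, the library that stood apart, although the log2 fold change there stayed at 0.97.

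The gene with ID HORVU.MOREX.r3.2HG0214180 at place 5601 of 5808 on 2H, which has no description at hand, was undetected in Golden Promise and rose in Regina, with 884, 413 and 892 counts in waterlogged and 307, 136 and 116 in control roots (log2 fold change 2.02, SE 0.454, edgeR adjusted p = 0.0134). The groups did not overlap. The adjusted p was 0.0822 without control replicate 2 and 0.0594 without control replicate 3. In Infinity, Passport and Pilastro its log2 fold changes were 0.84, 1.22 and 1.04, with edgeR adjusted p-values of 0.336, 0.208 and 0.188.

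Early nodulin 93 (HORVU.MOREX.r3.7HG0649530), first known as a gene of legume root nodules, had the widest range under treatment. It was at 0 in all 12 libraries of Infinity and Regina. In Passport it had 2133, 1812 and 2761 counts in waterlogged and 88, 274 and 136 in control roots, which did not overlap, but the change did not pass the test (log2 fold change 3.75, SE 1.12, edgeR adjusted p = 0.149). In Pilastro it had 3691, 919 and 1952 counts in waterlogged and 68, 630 and 0 in control roots (edgeR adjusted p = 0.115). In Golden Promise it had 793, 1065 and 457 counts in waterlogged and 0 in all control roots, so it was at least 251-fold higher against the floor of 3 counts per library (edgeR adjusted p = 0.0493). That adjusted p was between 0.0706 and 0.229 when any 1 of the 6 Golden Promise libraries was left out, and 0.172 with the replicate number as a block.

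Libraries of 1 group could lie on both sides of the limits. In 12 of the 119 genes (10.1%) some group held a library at 3 counts or fewer beside a library at 50 or more. Over all 15199 genes at 50 or more counts in a variety, 142 (0.934%) had such a group. Of these 15199 genes, 12777 were at 50 or more in all 30 libraries and could not have such a group. The 119 genes were chosen for counts on both sides of the limits, so their higher share follows in part from the rule. The wound-induced protease inhibitor (HORVU.MOREX.r3.1HG0067180), of a class that blocks the digestive enzymes of insects, was among the 12. It had 574 to 1251 counts in waterlogged and 440 to 1357 in control roots of Golden Promise and Infinity, and 0 in all of Pilastro. In Passport it had 264, 314 and 0 counts in waterlogged and 0, 305 and 0 in control roots. In Regina it had 0 in all waterlogged and 0, 252 and 794 in control roots, a difference that did not pass the test (edgeR adjusted p = 0.0704) and did with the replicate number as a block (adjusted p = 0.0286).

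Polyribonucleotide nucleotidyltransferase (HORVU.MOREX.r3.5HG0536100), an enzyme of RNA decay, had 150, 169 and 122 counts in waterlogged and 144, 151 and 137 in control roots of Infinity, and 0 in all other libraries except 1, Pilastro waterlogged 2, which had 148. A protein of the family for structural maintenance of chromosomes (HORVU.MOREX.r3.7HG0697740) was expressing in Infinity, at 0 in Regina, and in Pilastro had 0, 0 and 18 counts in waterlogged and 0 in all control roots. The sulfotransferase, Polyribonucleotide nucleotidyltransferase and the gene at place 804 on 7H each owed their mixed group to 1 library, and in Passport that library was Passport waterlogged 2. For the sulfotransferase in Passport the edgeR adjusted p was 0.146 without and 0.0117 with the replicate number as a block, and the log2 fold change turned to -3.1 when that library was left out.

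**Figure D5:**
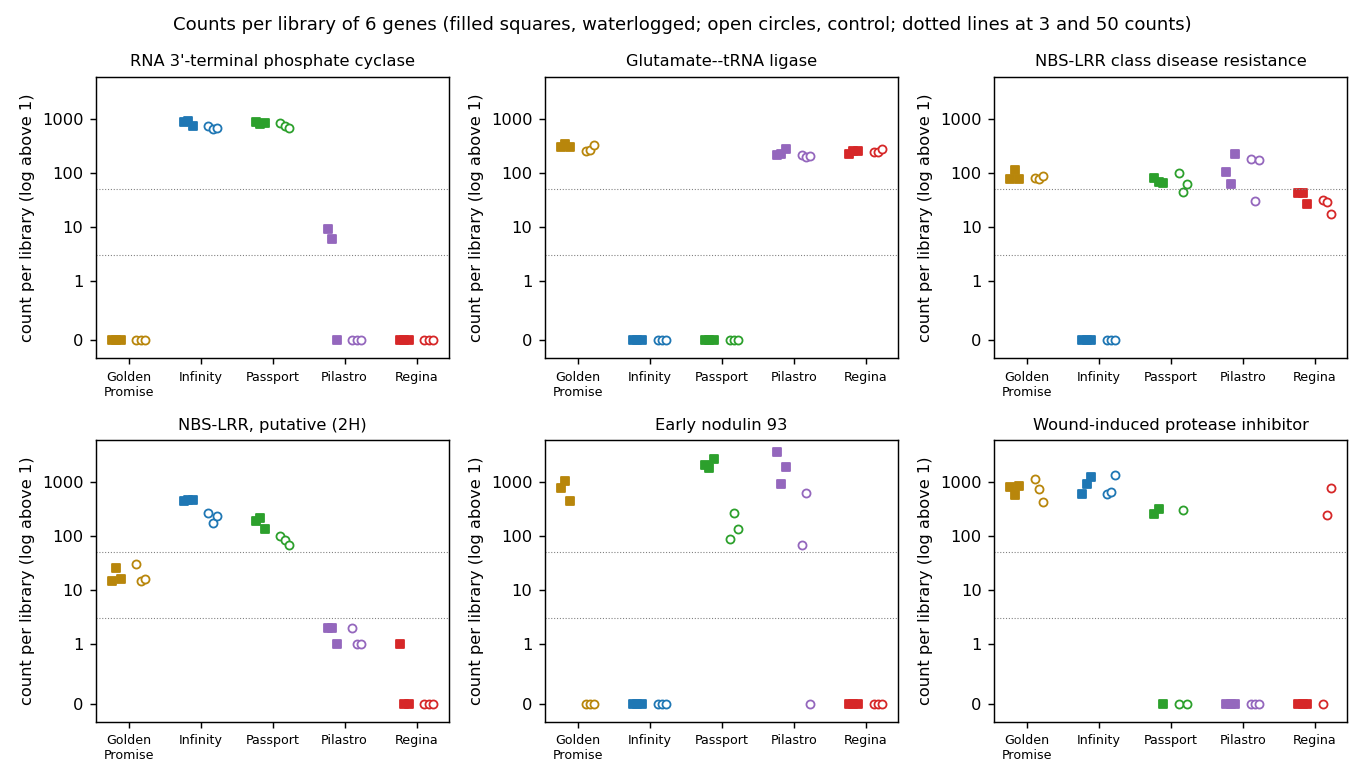
Counts of 6 genes in each library, on an axis that is logarithmic above 1, with waterlogged libraries as filled squares left of control libraries as open circles and dotted lines at 3 and 50 counts. RNA 3'-terminal phosphate cyclase and Glutamate--tRNA ligase are at 0 or at 201 counts and more in all but 2 libraries, whereas the wound-induced protease inhibitor is at 0 and at 252 counts or more within the groups of Passport and in Regina control roots.

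A test of whether the response to waterlogging differed among the 5 varieties called 0 of the 20576 genes by edgeR, 662 of which (3.22%) had an unadjusted p below 0.05. Of the 119 genes 4 had an unadjusted p below 0.05 (3.36%), with an adjusted p of 1 for each.

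To see whether the pattern held in libraries that had not chosen the genes, the rule was applied to the 15 control libraries alone and read in the 15 waterlogged libraries. The controls chose 177 genes, which by the rule had to include all 119. Of 320 undetected combinations of gene and variety in the controls, 248 (77.5%, 95% Wilson interval 72.6 to 81.7%) had 3 counts or fewer in all 3 waterlogged libraries as well, and 7 had 50 or more in all 3. Of 361 expressing combinations 314 (87.0%, 83.1 to 90.1%) had 50 or more in all 3 waterlogged libraries and 0 had 3 or fewer in all 3. Without Passport waterlogged 2 the shares were 83.8% and 87.5%.

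The differences between varieties chosen in the controls were then tested in the waterlogged libraries, with 1 edgeR fit of those 15 libraries. Of 562 contrasts between an expressing and an undetected variety, 480 (85.4%) were called in the chosen direction. Over the same 10 contrasts, 7.75% of all genes were called, counted in either direction. The contrasts share genes and libraries, so they are not independent. Between Golden Promise and Infinity 61 of 69 were called, and between Pilastro and Regina 22 of 25. The smallest share was between Infinity and Passport, with 41 of 56.

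Where 2 or more varieties expressed a gene, their levels mostly differed less than 2-fold, but larger ratios were more frequent than in other genes. Varieties in between were left out, which keeps lower levels out of the ratio. For the 60 genes of this kind, the ratio of the highest to the lowest mean CPM among expressing varieties was 1.00 to 11.1 with a median of 1.39, and 10 (16.7%) exceeded 2. For the 14455 other genes expressed in 2 or more varieties the median was 1.30 and 7.65% exceeded 2. An even case was the gene at place 4944 of 5808 on 2H, undetected in Golden Promise at 0 counts in 6 libraries, with 1166 to 1714 counts in all 24 libraries of the winter varieties.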

How the data were processed

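Total RNA of barley roots was sequenced as 50-base single-end reads, 3 samples in each of 10 groups (5 varieties, waterlogged or control). Per the labels and methods, the authors aligned reads with Bowtie2 2.4.5 to the Morex V3 genome, sorted them with SAMtools 1.15.1 and derived gene counts with StringTie 2.1.7. The deposited table holds these whole-number counts per gene, not normalised. Strand, trimming and the handling of reads with several matches are not given in the sources used here.

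Genes were selected on the raw counts with limits of 3 and 50 in all 6 libraries of a variety. The genes and lists were chosen with earlier results of these data known. Gene order is the order of the IDs of the counted genes within a chromosome, since no coordinates were used. Names came from descriptions in the tables at hand. Text names, for each variety, the described genes with the largest smallest count among those undetected or expressed there alone, described genes in the longest runs, those with the smallest adjusted p for waterlogging, and those described as disease resistance genes. A few others were named after their values were seen, among them the Myb/SANT-like, NAC, hydrolase, acetyl-coenzyme A carboxylase and myosin heavy chain-related genes and the deepest ones without a description. None of the 58438 RefSeq entries at hand matched a gene ID, so no sequence is shown.

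Waterlogging was tested with edgeR 4.0.16 (R 4.3.3, TMM scaling, filterByExpr, quasi-likelihood test, 1 fit of 10 groups without a block), which left 20576 genes. CPM values are relative to TMM-scaled totals. DESeq2 1.42.0, its size factors, no filter, a replicate block, a fit of 1 variety alone, other limits and leaving out each library were alternatives. Scripts were tested on simulated data. Per the methods, the 3 samples of a group came from separate runs of the experiment, so p-values measure the spread between runs. The sources used here do not say whether a number marks 1 run in both treatments. Deviations of samples with the same number correlated at 0.146 to 0.268 in Passport and 0.109 to 0.304 in Regina over 20576 genes. The main fit did not pair samples by number in any variety, also not in these. Only the alternative with a replicate block did so, in all 5 varieties. In Golden Promise, Infinity and Pilastro at least 1 correlation was below 0.1.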

Additional observations from a re-analysis of the deposited data

How the results depend on the processing

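The number of genes that met the rule depended on the lower limit for expression, with 225 genes at a minimum of 20 counts and 66 at 100, of which 36 and 6 stood next to another. It was 48 when every variety had to be on 1 side, an alternative chosen after seeing the data. Leaving out 1 library gave 119 to 130 genes, 22 to 26 of them next to another, and 75 to 85.7% of adjacent pairs with the same undetected varieties. That share was 55% within 5 places.

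Waterlogging calls among the genes moved by 1 or 2. With the variety fitted alone they were 0 in Infinity, 2 in Passport and 0 in Regina, and DESeq2 called 2 each in Infinity, Pilastro and Regina. Leaving out 1 library gave 0 to 1 in Infinity, Passport and Regina and 0 in Golden Promise and Pilastro. With the replicate number as a block the calls among the genes stayed at 0, 1, 1, 0 and 1 in the order Golden Promise, Infinity, Passport, Pilastro and Regina, while calls over all genes in Passport numbered 434 with the block and 223 without it. With the block, Polyribonucleotide nucleotidyltransferase in Pilastro reached an adjusted p of 0.00998 and Early nodulin 93 in Golden Promise one of 0.172. The sulfotransferase in Passport had log2 fold changes of -3.1 to 8.8 when 1 library was left out, lowest without waterlogged replicate 2. The cause of these shifts was not tested.

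Chosen in the waterlogged and read in the control libraries, 85.8% of undetected and 75.6% of expressing combinations stayed so. Over left-out libraries these shares, chosen in the controls, were 74.1 to 83.8% and 81.4 to 88.6%, and 81.1 to 87.4% of contrasts were called. A limit of 3 counts in a library lies near 0.25 CPM, and expression below that was called undetected by the rule. Counts of 1 to 3 did occur in undetected varieties of 24 genes, and lower expression could be missed at this depth.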
